A study of Mus musculus with 16 samples.

Results

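The comparison described here is the difference between 2 differentiation responses. The change that neural stem and progenitor cells made between proliferation and differentiation was measured in cells with an intact Kat7 gene and in cells without it, and the intact change was subtracted from the null change. All 16 of the series' 16 libraries enter this comparison, because each of its 4 groups of 4 libraries is needed to form it. Cortex and ganglionic eminence of mouse foetuses at E14.5 gave the cells, which were kept as neurospheres, with isolates of 4 foetuses per genotype. Null cells were Kat7lox/lox NesCreT/+, and intact cells were Kat7+/+ NesCreT/+, so that the Nestin-driven Cre transgene was carried by both genotypes. Proliferating cells were sampled after 3 passages and 3 days. Differentiating cells were taken 3 days after passage 3, plated at 20000 cells per square centimetre on laminin in a cortical neuron medium. Neurospheres hold stem cells and their restricted progeny side by side, and each library is an average over such a mixture.

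KAT7, also called HBO1, is a histone acetyltransferase of the MYST family that acetylates histone H3 at lysine 14 and histone H4 through complexes built on BRPF or JADE scaffold proteins. Neurospheres are kept cycling by epidermal and fibroblast growth factors. When these are withdrawn on an adhesive substrate, the cells leave the cell cycle and turn on the programmes of neurons, astrocytes and oligodendrocytes. A response is called blunted here where the null cells changed less than the intact cells, enhanced where they changed more in the same direction, and reversed where the genotypes changed in opposite directions.

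Each gene was tested for the interaction, which is the log2 fold change of null cells minus that of intact cells, with edgeR's quasi-likelihood test and Benjamini-Hochberg adjustment over 15177 genes. Every adjusted p below comes from that test, and a gene was called where it lay under 0.05. Levels are in CPM, counts scaled to library size with the trimmed mean of M values, given for libraries 1 to 4 of a group in that order or as mean ± SD over 4 libraries, and log2 differences carry their standard error (SE). CPM is not divided by gene length, so levels were compared within a gene only.

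The libraries held 16.8 to 47.9 M counts and detected 16322 to 18774 of 27179 genes. Kat7 itself (Entrez 217127, chromosome 11, 95271853 to 95310246) lay at 139 ± 5.59 CPM in intact proliferating and 103 ± 3.08 CPM in intact differentiating cells. The 4 null proliferating libraries held 8 Kat7 counts together and the 4 null differentiating libraries held 1, so the labels and the gene went together in all 16 libraries. Intact proliferating replicate 1 stood apart from its group, and intact differentiating replicate 1 was the highest of a widely spread group. The mean log2 level of 32 pan-neuronal genes was 4.89 in intact proliferating replicate 1 against 4.04 to 4.09 in the other 3 libraries of its group. It was 7.89, 6.56, 6.86 and 5.81 in intact differentiating replicates 1 to 4. Genes called numbered 3655 without intact differentiating replicate 1 and 3680 without intact differentiating replicate 4, the lowest library. The 2 intact libraries numbered 1 are named below as the libraries that stood apart. For most lists that leaving out both moved by over 1.5 times, both counts are given. Null proliferating replicate 4 lay apart for some lists, with a mean log2 level of astrocyte genes of 7.07 against 6.51 to 6.60, of synapse and ion channel genes of 3.44 against 2.97 to 3.00, of DNA replication genes of 6.23 against 6.54 to 6.70 and of mitotic genes of 6.98 against 7.18 to 7.29 in the other 3 libraries of its group. Neuronal, astrocyte, oligodendrocyte and stem cell markers were all present. Endothelial and erythroid markers were scarce, with summed levels of at most 4.73 CPM for 8 endothelial genes and 1.19 CPM for 6 erythroid genes. The 8 mural (vessel wall) markers, Cspg4 among them, summed to 252 to 298 CPM in intact proliferating, 136 to 201 CPM in intact differentiating, 226 to 412 CPM in null proliferating and 279 to 376 CPM in null differentiating cells. Kcnj8 was at 0 counts in 3 of these groups. Of 6 mural markers tested, Cspg4 and Notch3 were called higher and Tagln lower. The 10 microglial genes summed to 31.6 to 39.8 CPM in null differentiating cells and 15.6 to 26.1 CPM in the other 3 groups, with C1qa at 0 counts in all 4 groups.

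The differentiation response differed between the genotypes for many genes. Of 15177 genes, 3442 (22.7%) were called, with the null response higher for 1935 (12.7%) and lower for 1507 (9.93%). A difference of more than 2-fold was seen in 618 of the former and 741 of the latter. The response itself was broad in both genotypes, at 72.0% of genes called in intact cells and 69.0% in null cells. The median interaction over all genes tested was 0.04. Leaving out the 2 libraries that stood apart raised the count to 4592, with 2488 higher and 2104 lower. In 2414 genes (15.9%) the call was made in each of the 16 fits that left out 1 library.

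By the definitions used, 1614 genes were blunted, 739 enhanced and 303 reversed. These totals are not alike in scope. Blunted genes include those with no called null response, 466 rises and 351 falls. Genes with a called response in null cells only were kept apart from the enhanced ones. With both responses called, 212 rises and 585 falls were blunted, against 421 rises and 318 falls enhanced. Genes that fell upon differentiation in intact cells and fell less or not at all in null cells numbered 936 (6.17% of genes tested). Genes whose rise was blunted numbered 678 (4.47%), and in 466 of them the null response itself was not called. A rise was enhanced in 421 genes (2.77%) and a fall in 318 (2.1%). A rise turned into a fall in 165 genes (1.09%) and a fall into a rise in 138 (0.909%). A further 771 genes responded in null cells with no response called in intact cells, 431 as a rise (2.84%) and 340 as a fall (2.24%). The remaining 15 genes (0.0988%) had no response called in either genotype. These classes were read from the same model and have no test of their own, and the count of blunted rises was 1044 without intact proliferating replicate 1.

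**Figure D1:**
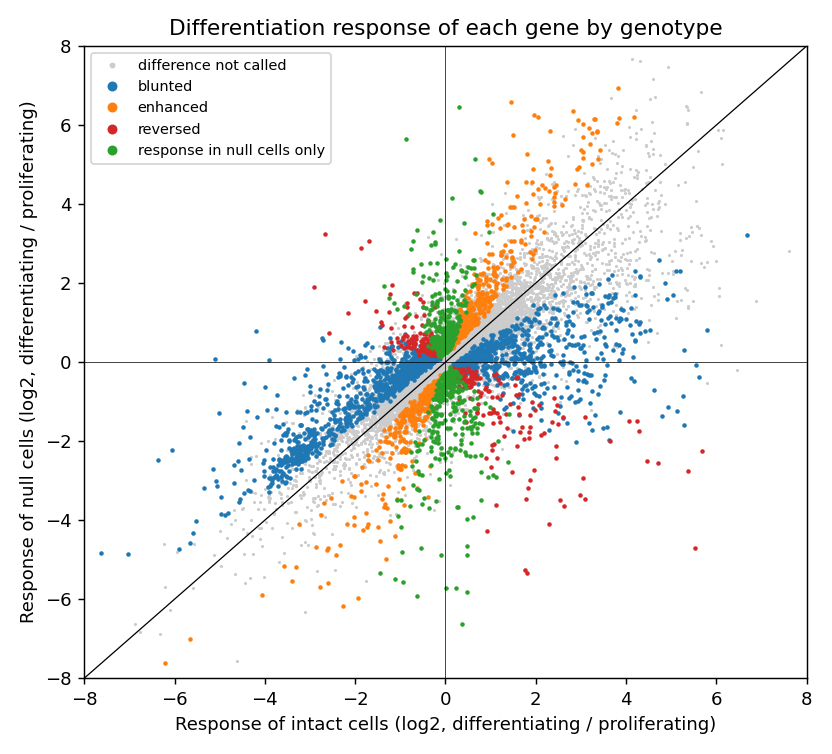
Differentiation response of null cells (vertical axis, log2 fold change, differentiating over proliferating) against that of intact cells (horizontal axis), 1 point per gene for 14671 genes with more than 3 counts in every group and both values within 8, coloured by class. Most blunted genes lie between the horizontal line at 0 and the diagonal, some past the line at 0 where the null response was not called, enhanced genes lie beyond the diagonal, and the upper left and lower right fields hold the reversed genes.

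A log2 ratio and a difference in level need not have the same sign. In 133 of the 3442 called genes the null minus intact difference of the change in CPM had the opposite sign to the log2 interaction. Enhanced rises accounted for 57 of these and blunted falls for 53. Proliferating and differentiating levels are therefore given beside the interaction for the genes described in most detail.

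The lists of genes by function differed widely in their share of calls and in direction. Mitotic and replication genes lay at the high end, where the null response was higher than the intact response. Sterol synthesis and unfolded protein response genes lay at the low end, with no member called higher. Neurogenic factors, astrocyte genes and oligodendrocyte progenitor genes were called mostly or only with the higher null response, and pan-neuronal and synaptic genes mostly with the lower.

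**Figure D2:**
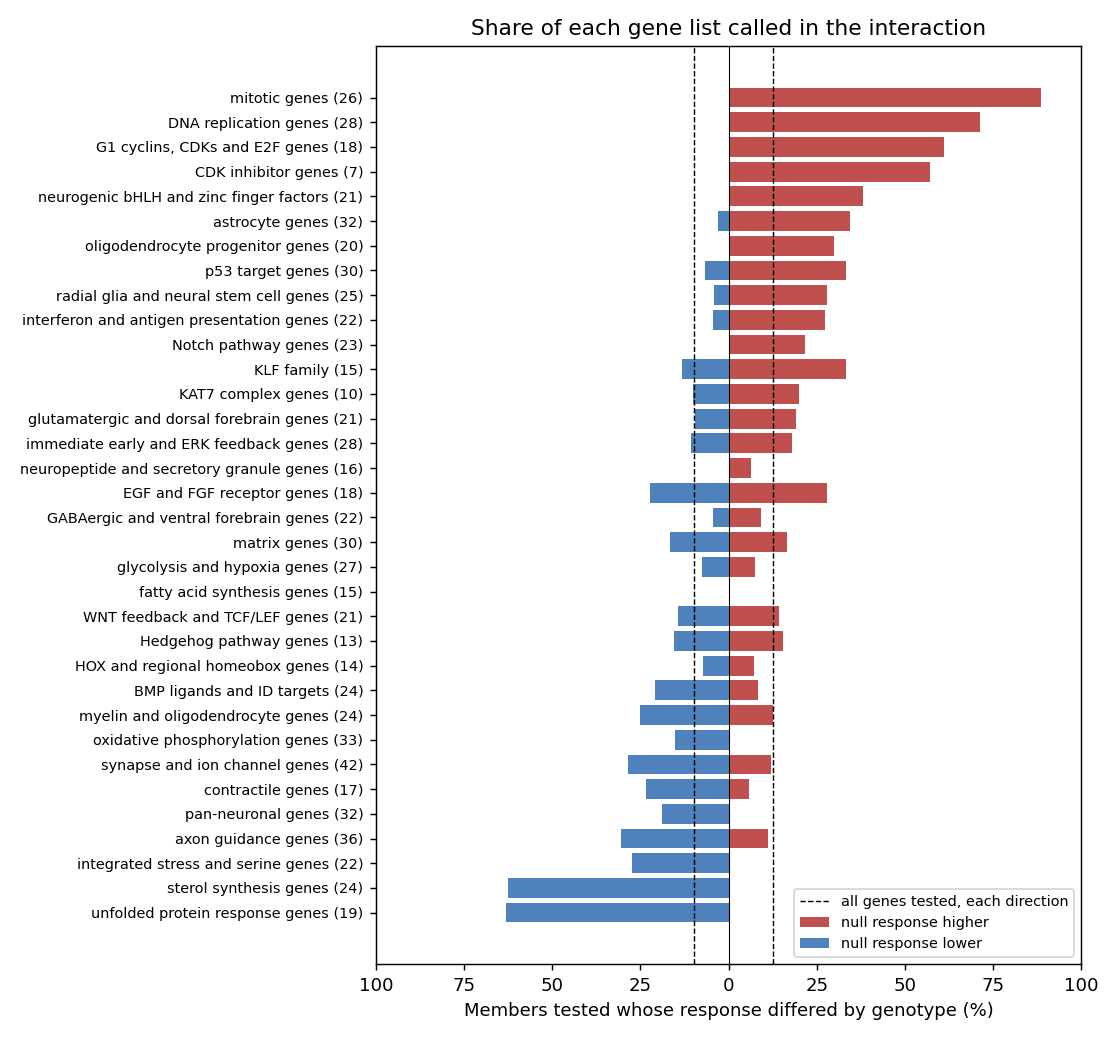
Percentage of tested members of each functional list called in the interaction, with the null response higher to the right and lower to the left, beside dashed lines at the percentages over all 15177 genes (12.7% and 9.93%). Mitotic genes reach 88.5% to the right, and unfolded protein response (63.2%) and sterol synthesis genes (62.5%) extend furthest to the left.

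Cell cycle genes fell less in null cells. Of 26 mitotic genes, 23 were called and all 23 were blunted falls, with a median interaction of 0.83 against 0.04 over all genes. All 26 were called without the 2 libraries that stood apart and 20 without null proliferating replicate 4. These genes encode the kinases, motors and spindle proteins of cell division, and they are transcribed in G2 and mitosis through promoter elements named the CCAAT box and the cell cycle homology region. The letters CCAAT were found on either strand in 83.3% of the 24 promoter windows of 23 members, against 37.4% of all 32851 windows. The letters TTTGAA, the core of the homology region, were found in 79.2% against 17.9%. Windows are the 250 bases before and 50 bases after a start site in RefSeq's annotation of GRCm38.p6. Both motifs stand in the stretches that end at the start site of 4 called members, shown as examples that hold both before the start. Each motif was counted by itself, and a joint arrangement over the list was not measured. In other members TTTGAA lay after the start, as in Aurka and Cenpa, or was not found, as in Bub1. Capitals mark CCAAT or its reverse complement ATTGG, and TTTGAA or its reverse complement TTCAAA. A match is a description of the sequence and not a site.
Top2a, chr11:99024190-99024299, minus strand: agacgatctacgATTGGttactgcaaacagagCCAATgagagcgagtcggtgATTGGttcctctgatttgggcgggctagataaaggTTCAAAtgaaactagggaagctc
Kif11, chr19:37376272-37376381, plus strand: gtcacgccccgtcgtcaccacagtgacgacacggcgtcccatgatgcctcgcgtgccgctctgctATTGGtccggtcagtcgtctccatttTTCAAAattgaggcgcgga
Cdk1, chr10:69352913-69353022, minus strand: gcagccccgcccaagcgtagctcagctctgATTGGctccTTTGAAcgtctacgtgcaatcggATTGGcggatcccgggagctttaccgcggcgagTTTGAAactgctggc
Ube2c, chr2:164769819-164769928, plus strand: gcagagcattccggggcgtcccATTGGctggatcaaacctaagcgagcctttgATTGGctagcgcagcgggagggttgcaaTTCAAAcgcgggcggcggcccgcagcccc

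Mki67, a protein of the mitotic chromosome surface and the common marker of cycling cells, lay at 578, 555, 562 and 696 CPM in the intact proliferating libraries and at 71.6, 52.8, 53 and 38.9 CPM in the intact differentiating libraries. The null libraries were at 603, 393, 392 and 470 CPM while proliferating and at 124, 111, 116 and 116 CPM while differentiating. Every differentiating null library was above every differentiating intact library, whereas the proliferating groups overlapped. The mean went from 598 to 54.1 CPM in intact and from 465 to 117 CPM in null cells, an interaction of 1.47 ± 0.23 (adjusted p = 0.00052). Top2a, the topoisomerase that untangles sister chromatids, went from 838, 919, 916 and 965 to 111, 91.2, 82.8 and 73.2 CPM in intact cells. It went from 780, 820, 833 and 705 to 193, 161, 161 and 163 CPM in null cells. Its 4 differentiating null libraries were again higher than all the differentiating intact ones, and the interaction was 1.13 ± 0.15 (adjusted p = 0.00021). Among the other genes whose promoters are printed, the spindle motor gene Kif11 had an interaction of 1.06 ± 0.16, the mitotic kinase gene Cdk1 of 0.75 ± 0.17 and the ubiquitin-conjugating enzyme gene Ube2c of 0.80 ± 0.16. The checkpoint kinase gene Bub1 (1.15 ± 0.17) and the motor gene Kif20a (1.02 ± 0.14) were similar in size. The cyclin gene Ccnb1 (0.36), the kinase gene Plk1 (0.51) and Cdc20 (0.21), the activator of the anaphase-promoting complex, were not called.

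Genes of DNA replication followed the same direction. Of 28, 20 were called, all 20 as blunted falls, with a median interaction of 0.59, and 20 were called without null proliferating replicate 4. Cdc45, a subunit of the replicative helicase, lay at 57.3, 73.1, 67 and 72.3 CPM in proliferating and 8.16, 7.82, 8.85 and 8.66 CPM in differentiating intact cells. Null cells had 56.2, 63.8, 61.7 and 44 CPM in proliferating and 20.7, 15.4, 13.9 and 18 CPM in differentiating libraries. The differentiating groups did not overlap, and the interaction was 1.28 ± 0.19 (adjusted p = 0.00035). The polymerase gene Pole (1.07 ± 0.19), the initiation factor gene Mcm10 (1.20 ± 0.22) and the ribonucleotide reductase gene Rrm1 (0.78 ± 0.13) were also called. The list's promoters hold the E2F motif TTTNGCGC in 32.0% of 25 windows, against 1.38% of all windows of the same length. The replicative helicase genes Mcm6 (0.75 ± 0.19) and Mcm5 (0.71 ± 0.20) each carry it on both strands in an overlapping pair, and Mcm6 holds a further match on 1 strand. They are shown in capitals in the stretch from 130 to 31 bases before the start of Mcm6 and from 180 to 111 bases before the start of Mcm5.
Mcm6, chr1:128359736-128359835, minus strand: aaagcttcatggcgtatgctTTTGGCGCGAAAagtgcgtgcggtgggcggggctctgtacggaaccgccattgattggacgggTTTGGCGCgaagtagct
Mcm5, chr8:75109329-75109398, plus strand: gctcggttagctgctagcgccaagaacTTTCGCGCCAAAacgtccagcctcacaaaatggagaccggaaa

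Of 18 genes of G1 cyclins, cyclin-dependent kinases and E2F factors, 11 were called with the higher null response and 0 with the lower. Of these, 9 were blunted falls, among them the activator E2f2 (1.35 ± 0.18), the repressor E2f7 (1.19 ± 0.27) and Cdk2 (0.75 ± 0.16). The retinoblastoma family genes Rb1 (0.28 ± 0.08) and Rbl2 (0.45 ± 0.11), which hold E2F factors in check, rose in both genotypes and rose more in null cells. The cyclin gene Ccnd1 (-0.13) and the kinase gene Cdk4 (0.27) were not called. Of 7 genes of cyclin-dependent kinase inhibitors, 4 were called, all with the higher null response. Cdkn1a, which encodes p21, went from 152, 430, 446 and 509 to 14.9, 11.2, 9.32 and 10.3 CPM in intact cells and from 355, 283, 298 and 526 to 47.7, 38.8, 34.6 and 44.4 CPM in null cells. Intact proliferating replicate 1 was the low library of its group, and the differentiating groups did not overlap. The interaction was 1.92 ± 0.42 (adjusted p = 0.0048). Cdkn2a, the locus of p16 and p19ARF, fell from 14.3 to 1.25 CPM in intact cells and less in null cells, to 6.30 CPM (2.26 ± 0.54). Cdkn1c, which encodes p57, moved the other way, from 24.3 to 89.8 CPM in intact and from 5.83 to 74.3 CPM in null cells (1.80 ± 0.46), so that its enhanced rise ended at a lower mean level.

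Cdkn1a is also a target gene of p53, the transcription factor of the DNA damage response. Of 30 p53 target genes, 10 were called with the higher null response and 2 with the lower, with a median of 0.53, and 17 and 2 were called without the 2 libraries that stood apart. Of the 10, 7 were blunted falls. The receptor gene Eda2r fell from 164 to 8.22 CPM in intact and from 142 to 37.9 CPM in null cells (2.42 ± 0.33, adjusted p = 0.00022). Ddit4l, an inhibitor of mTOR signalling, fell from 56.7 to 4.26 CPM in intact and from 309 to 100.1 CPM in null cells (2.12 ± 0.21). Its fall was blunted on the log2 scale only, since the change in CPM was larger in null (-208) than in intact cells (-52.5). The anti-proliferative gene Btg2 lay at 171 and 133 CPM in intact cells without a call and rose from 151 to 354 CPM in null cells (1.59 ± 0.29). Plk3 (-1.47 ± 0.29) and Gadd45a (-1.62 ± 0.42), both stress-induced, had the lower null response. Bax (-0.07), the effector of mitochondrial apoptosis, and Mdm2 (-0.14), the p53 ubiquitin ligase, were not called.

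**Figure D3:**
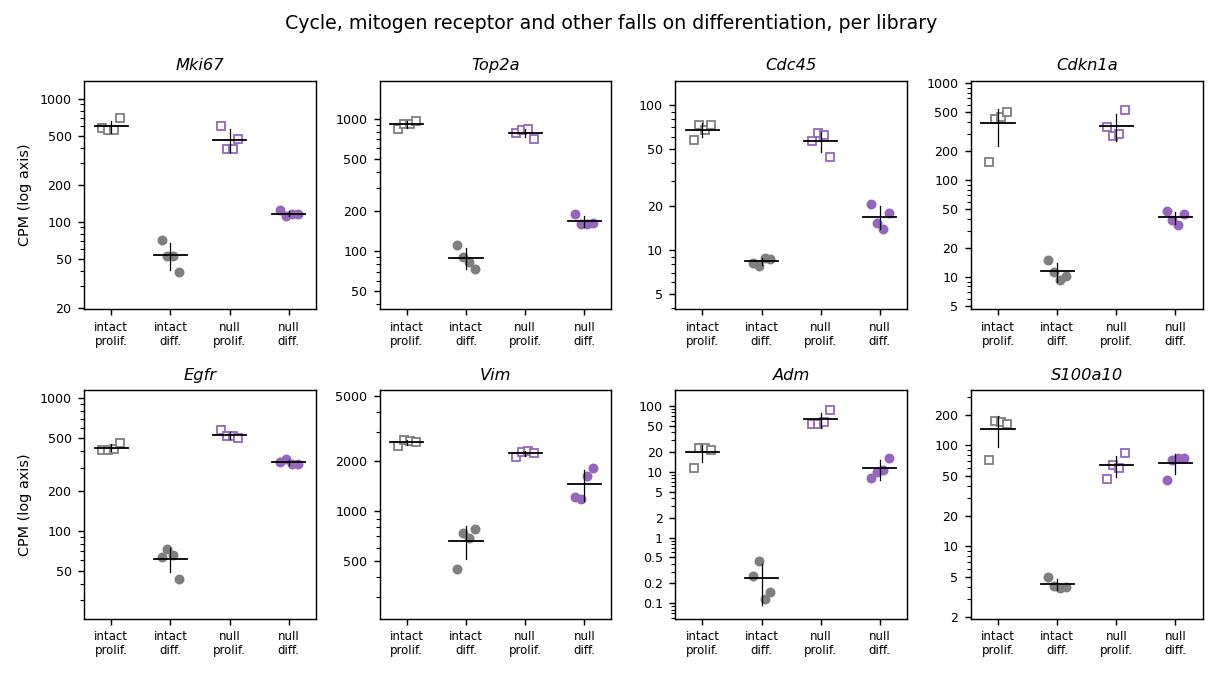
Level of 8 genes that fell on differentiation in intact cells, in each library (CPM, log axis), by genotype and condition, squares for proliferating and circles for differentiating, grey for intact and purple for null, with horizontal lines at the means of 4 libraries and vertical lines at ± SD. In Mki67, Top2a, Cdc45, Egfr and Cdkn1a all 4 null differentiating libraries lie above the 4 intact differentiating ones.

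The receptor gene Egfr was kept at a higher level by differentiating null cells. Egfr, the receptor through which epidermal growth factor keeps neurospheres cycling, lay at 407, 410, 413 and 461 CPM in proliferating and at 63.9, 73.3, 65.9 and 43.5 CPM in differentiating intact cells. In null cells it went from 572, 515, 516 and 501 CPM to 332, 349, 320 and 318 CPM. No library of a group overlapped with the matching group of the other genotype, in either condition. The fall was 2.78 in intact and 0.67 in null cells, an interaction of 2.10 ± 0.17 (adjusted p = 3.9e-06). Its partner gene Erbb2 fell from 33.1 to 17.8 CPM in intact cells and lay at 26.2 and 28.8 CPM in null cells without a called response (1.04 ± 0.19). Erbb4, a neuregulin receptor, rose in both, from 8.53 to 46.7 and from 2.46 to 57.0 CPM (2.03 ± 0.42). Genes of 2 ligands of these receptors had the lower null response. Areg, which encodes amphiregulin, fell from 2.47 to 0.0562 CPM in null cells only (-4.37 ± 1.18), and the fall of Hbegf was enhanced (-0.76 ± 0.24). Of 18 EGF and FGF ligand and receptor genes, 5 were called higher and 4 lower.

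Genes that report or restrain ERK signalling did not move as a block. Of 28 immediate early and feedback genes, 5 were called higher (17.9%, against 12.7% of all genes) and 3 lower (10.7%, against 9.93%), with a median of -0.05. Those counts were 12 and 4 without the 2 libraries that stood apart. The higher count was 10 without intact differentiating replicate 1 and 3 without null proliferating replicate 2 or 3 or null differentiating replicate 3, and the lower count was 6 without intact differentiating replicate 4. Il17rd, a membrane antagonist of FGF signalling, lay at 19.6 and 19.9 CPM in intact cells and rose from 11.2 to 47.1 CPM in null cells (2.06 ± 0.26, adjusted p = 0.00013). The fall of Spry2, a cytoplasmic antagonist, was blunted (0.92 ± 0.22). The phosphatase gene Dusp4, which acts on nuclear ERK, fell from 26.9 to 4.95 CPM in null cells and lay at 15.8 and 15.7 CPM in intact cells (-2.43 ± 0.58). The transcription factor genes Egr1 (0.72), Myc (0.57) and Etv5 (0.13) were not called.

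Stem cell and radial glia genes were called higher for 7 and lower for 1 of 25, with a median of 0.31, and lower for 4 without the libraries that stood apart, 3 without intact differentiating replicate 1 and 2 without intact proliferating replicate 1 or null differentiating replicate 3. Vim, the intermediate filament gene of radial glia, lay at 2476, 2695, 2651 and 2613 CPM in proliferating and 444, 732, 685 and 774 CPM in differentiating intact cells. The null libraries were at 2118, 2283, 2307 and 2260 CPM and then at 1216, 1175, 1641 and 1810 CPM. All differentiating null libraries were above all differentiating intact ones and all proliferating null libraries below the intact ones, with an interaction of 1.37 ± 0.22 (adjusted p = 0.00076). Sox3, a transcription factor of neural progenitors, fell from 177 to 83.4 CPM in intact cells and lay at 209 and 187 CPM in null cells with no called response (0.92 ± 0.27). Prom1, a surface marker of stem cells, rose in null cells only, from 22.2 to 77.6 CPM (1.38 ± 0.38). The exception was Tnc, a matrix protein of the stem cell niche, whose fall was deeper in null cells, from 1159 to 115 CPM against 1411 to 541 CPM (-1.95 ± 0.31). Sox2 (0.29), Nes (0.30) and Nr2e1 (0.11), defining genes of neural stem cells, were not called.

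Genes of the astrocyte lineage were called with the higher null response in 11 of 32 and with the lower in 1, at a median of 0.91. Of the 11, 4 were reversed from a fall to a rise, 3 were enhanced rises, 3 rose in null cells only, and 1 was a blunted fall. Without the 2 libraries that stood apart, 13 were called higher and 5 lower, and leaving out intact proliferating replicate 1 alone gave 4 lower. Without null proliferating replicate 4, 14 were called higher and 1 lower. Fgfr3, the FGF receptor of astrocyte precursors, lay at 254, 212, 215 and 176 CPM in proliferating and 77, 95.3, 96.2 and 101 CPM in differentiating intact cells. Null cells had 112, 108, 106 and 139 CPM and then 155, 172, 170 and 164 CPM. The genotypes were apart in both conditions and in opposite order, and the interaction was 1.72 ± 0.16 (adjusted p = 1.4e-05). Nfia, a transcription factor that opens the gliogenic phase, went from 100.3, 133, 137 and 152 to 62.7, 72.1, 83.7 and 77.2 CPM in intact cells and from 121, 115, 114 and 121 to 153, 146, 196 and 186 CPM in null cells. Here the proliferating groups overlapped, the differentiating groups did not, and the interaction was 1.36 ± 0.17 (adjusted p = 0.00015).

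Ntsr2, a neurotensin receptor enriched in astrocytes, lay at 4.17, 1.84, 1.11 and 1.26 CPM and then 3.49, 2.94, 4.5 and 4.79 CPM in intact cells, and at 7.61, 5.92, 5.74 and 7.57 CPM and then 43.9, 54.6, 61.6 and 58.4 CPM in null cells. Every null differentiating library was far above all the others, and the interaction was 2.10 ± 0.43 (adjusted p = 0.0031). The GABA transporter gene Slc6a11 fell from 351 to 193 CPM in intact and rose from 510 to 668 CPM in null cells (1.25 ± 0.21). Sox9, a factor that specifies glia, lay at 217 and 220 CPM in intact cells and rose from 147 to 369 CPM in null cells (1.31 ± 0.21). Gja1, the gap junction protein connexin 43, rose from 116 to 207 and from 118 to 557 CPM (1.40 ± 0.28). Glul, the enzyme that converts glutamate to glutamine, was the member with the lower null response (-0.47 ± 0.14), a call lost in 3 of the 16 fits that left out 1 library. The most used markers of mature astrocytes, Gfap (1.89), Aqp4 (1.01) and Aldh1l1 (0.72), were not called. In bulk libraries such as these, fewer cells of a type and less RNA per cell cannot be told apart.

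Oligodendrocyte progenitor genes were called only with the higher null response, and genes of maturing oligodendrocytes in both directions. This contrast between lists was not tested. Both lists had lower mean levels in null cells. Progenitor genes had a mean log2 level of 5.09 to 5.29 in null and 6.04 to 6.903 in intact proliferating libraries. It was 6.84 to 6.96 in null and 6.996 to 7.79 in intact differentiating libraries. Differentiating levels of maturing genes were 3.15 to 3.58 in null and 5.34 to 6.06 in intact libraries. Mean sums of 8 lineage markers went from 3072 to 5510 CPM in intact and 2077 to 2135 CPM in null cells. Of 20 genes of oligodendrocyte progenitors, 6 were called higher and 0 lower, while of 24 genes of myelin and maturing oligodendrocytes 3 were called higher and 6 lower. The first count ranged from 2 to 7 as libraries were left out, was 2 without null proliferating replicate 1 and 4 without the libraries that stood apart. The second pair was 1 and 10 without the libraries that stood apart, and the lower count was 10 without intact proliferating replicate 1 alone. Lhfpl3, a membrane protein of progenitors, lay at 129, 82.7, 82.8 and 80.2 CPM and then 144, 290, 274 and 333 CPM in intact cells. In null cells it rose from 12.1, 8.51, 9.65 and 12.9 CPM to 181, 187, 159 and 136 CPM. Its interaction was 2.46 ± 0.33 (adjusted p = 0.00018), yet the mean change in CPM was alike, 166 in intact and 155 in null cells, from a lower start in the null cells. Pdgfra, the receptor that defines the progenitor, rose from 144 to 536 and from 33.8 to 309.7 CPM (1.30 ± 0.44), a call made in only 6 of the 16 fits that left out 1 library. Cspg4, the NG2 proteoglycan, was a blunted fall. It lay at 108, 137, 137 and 143 CPM and then 25.9, 30.2, 40.3 and 31.9 CPM in intact cells, and between 20.8 and 40.8 CPM in all 8 null libraries (2.08 ± 0.28, adjusted p = 0.00021). The null proliferating range of 24.4 to 39.9 CPM overlapped the intact differentiating range. Cspg4 also marks mural cells, and the part of such cells in this result was not tested.

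Among the maturation genes, Mobp, a late structural protein of myelin, rose in intact cells from 0.678, 0, 0.0921 and 0 CPM to 6.5, 2.94, 6.37 and 4.44 CPM. The null fall was from 0.419, 0.555, 0.749 and 0.312 CPM to 0.139, 0.0613, 0.0639 and 0.087 CPM. The genotypes did not overlap after differentiation, and the interaction was -7.26 ± 1.06 (adjusted p = 0.00032). The intact starting level rests on replicate 1, since the other 3 proliferating libraries held 2 counts together. Tmem88b, a membrane protein gene of the list, rose from 3.52 to 75.5 CPM in intact cells and lay at 1.83 and 3.19 CPM in null cells without a called response (-3.64 ± 0.83). Nkx6-2, a homeobox regulator of myelination, rose from 0.934 to 6.49 CPM in intact cells and lay at 2.54 and 2.50 CPM in null cells (-2.83 ± 0.48). Tcf7l2, a WNT effector needed for maturation, was also a blunted rise (-0.76 ± 0.21). Enpp2, which encodes autotaxin, went against them. It rose from 75.2, 19.9, 20.8 and 13.1 to 94.4, 174, 160 and 216 CPM in intact cells and from 0.349, 0.678, 0.541 and 2.32 to 61.4, 85, 56.4 and 40.6 CPM in null cells. Its interaction was 3.52 ± 0.80, although the gain in CPM was smaller in null (59.9) than in intact cells (129). The myelin genes Mbp (0.66) and Mag (0.41) were not called.

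**Figure D4:**
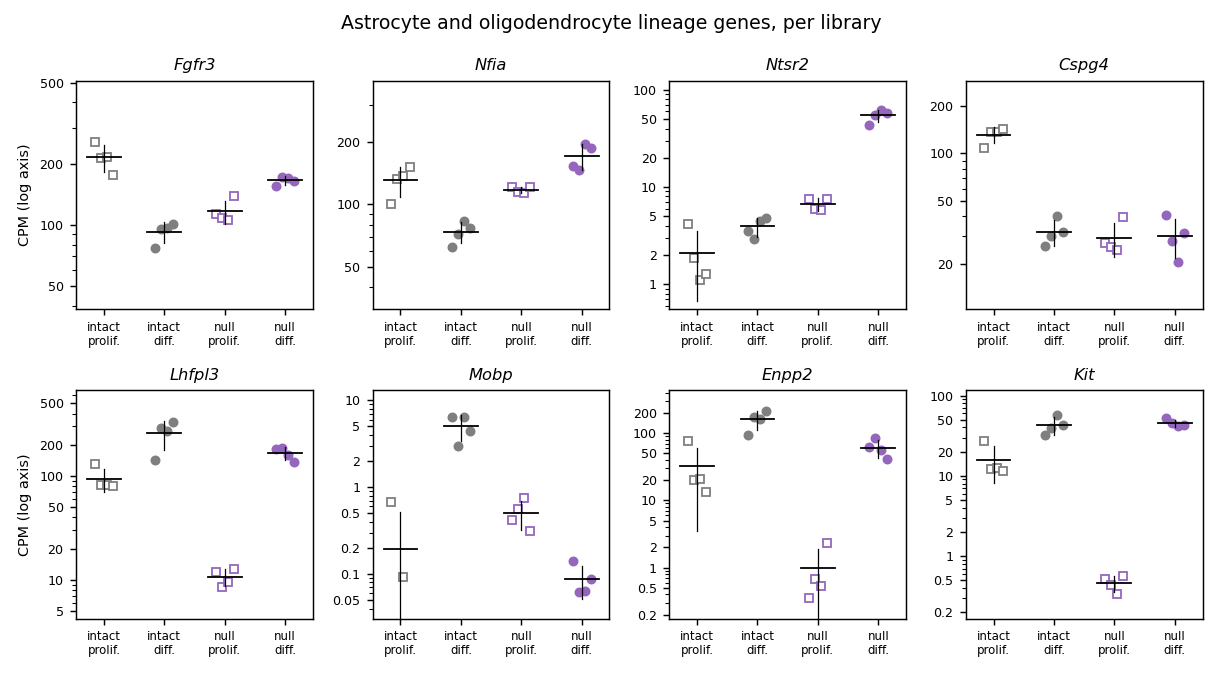
Level of 8 glial lineage genes in each library (CPM, log axis), with symbols, colours and lines as in the plot of cell cycle genes. Null differentiating libraries are the highest for Ntsr2 and lie below all 4 intact differentiating libraries for Mobp, where 2 intact proliferating libraries at 0 cannot be drawn, and lower ends of SD lines that reach 0 are clipped.

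Factors that start neurogenesis and genes of the neuron itself were called in different directions, and this contrast between lists was not tested. Of 21 neurogenic basic helix-loop-helix and zinc finger factors, 8 were called higher and 0 lower, with a median of 0.63 (0.57 with members of 3 or fewer counts in a group set to the bound that a floor of 3 counts allows). Over all genes, 12.7% were called higher and 9.93% lower, 22.7% in all. Of 32 pan-neuronal genes, 0 were called higher and 6 lower (18.75%), with a median of -0.69, and 26 were not called. The share of this list called in all was thus below that over all genes. The pan-neuronal counts were 4 and 11 without the libraries that stood apart, and the lower count was 12 without intact differentiating replicate 4. Of 42 synapse and ion channel genes, 5 were called higher (11.9%) and 12 lower (28.6%), with a median of -0.56 (-0.61 with 40 members at their values or bounds). The lower count was 8 without null proliferating replicate 4. The levels of the intact differentiating libraries were wide apart here, with neuronal marker sums of 2202 to 5980 CPM against 2338 to 2762 CPM in the null ones. The part of this spread in the neuronal results was not tested beyond leaving out libraries.

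Myt1, a zinc finger factor that promotes neuronal and oligodendroglial differentiation, rose in intact cells from 89.3, 52.5, 50.7 and 46.4 to 112, 184, 180 and 209 CPM. Its null rise was from 21.1, 27.4, 27.6 and 26 to 307, 311, 249 and 225 CPM. Its order between genotypes was inverted by differentiation with no overlap in either condition, and the interaction was 1.90 ± 0.30 (adjusted p = 0.00058). Sox4, which drives pan-neuronal gene expression, rose from 386 to 734 and from 334 to 1052 CPM (0.72 ± 0.16). Hes6, a helper of neurogenic factors, fell from 81.4 to 63.1 CPM in intact and rose from 99.9 to 115 CPM in null cells (0.57 ± 0.11). Ebf3 rose in null cells only, from 1.69 to 7.06 CPM, where intact cells were at 16.7 and 11.7 CPM (2.54 ± 0.54). Insm1 (0.63) and Myt1l (-0.16), other factors of the list, were not called. The Notch ligand genes Dll1 and Dll3, which neurogenic factors switch on in committed progenitors, had the higher null response as well. Dll1 lay at 112 and 115 CPM in intact cells and rose from 109.7 to 347 CPM in null cells (1.61 ± 0.33), and Dll3 rose from 54.6 to 113 and from 51.4 to 273 CPM (1.36 ± 0.40). Of 23 Notch pathway genes, 5 were called higher and 0 lower. The 21.7% called in all was near the 22.7% of all genes, of which 12.7% were higher and 9.93% lower. The higher count was 3 without null proliferating replicate 1, and the lower count was 2 without intact proliferating replicate 1. The target genes Hes1 (0.68) and Hes5 (0.65) were not called.

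Snap25, a membrane fusion protein of synaptic vesicles, rose from 7.41, 2.65, 2.86 and 1.89 to 124, 35.4, 55.3 and 10.9 CPM in intact cells. In null cells it rose from 3.73, 4.32, 3.83 and 4.59 to 11.1, 10, 10.3 and 9.68 CPM. The lowest intact differentiating library, replicate 4, lay within the null range, and the other 3 lay above it. The interaction was -2.61 ± 0.77 (adjusted p = 0.024) and was called in 14 of the 16 fits that left out 1 library. Nefl, the light neurofilament subunit, rose from 3.34, 1.35, 1.38 and 2.03 to 28.6, 12, 9.48 and 5.72 CPM in intact cells and lay at 2.62, 1.6, 2.04 and 0.907 and then 0.837, 0.705, 1.19 and 1.22 CPM in null cells without a called response (-3.63 ± 0.67, adjusted p = 0.0016). The RNA-binding protein gene Celf5 rose from 6.18 to 93.6 CPM in intact cells and lay at 5.52 and 7.06 CPM in null cells (-3.59 ± 0.77). Elavl3 rose in both, to 398 CPM in intact and 192 CPM in null cells (-1.49 ± 0.42). Tubb3 (0.16) and Map2 (0.19), the neuronal tubulin and microtubule-binding protein genes, and Dcx (2.81), a marker of migrating neurons, were not called.

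Glutamate receptor and sodium channel genes were among the called members of the synaptic list. Grin2b, a subunit of the NMDA receptor, was at 0.768 and 26.9 CPM in proliferating and differentiating intact cells and at 2.13 and 0.929 CPM in null cells (-6.36 ± 1.08, adjusted p = 0.00092). The AMPA receptor subunit gene Gria4 reversed, from 16.5 to 45.5 CPM in intact and from 2.72 to 0.430 CPM in null cells (-4.25 ± 0.98). Sv2a, a vesicle glycoprotein, rose from 28.6 to 124 CPM in intact cells and lay at 19.3 and 20.7 CPM in null cells (-2.03 ± 0.30). Scn2a (-2.91 ± 0.87) and Scn3a (-3.18 ± 0.92) were blunted rises as well, called in 12 and 15 of the 16 fits that left out 1 library. In contrast, the kainate receptor subunit gene Grik2 rose more in null cells, from 13.5 to 78.4 CPM against 24.0 to 69.3 CPM (1.01 ± 0.12, adjusted p = 7.2e-05). The E-box letters CAGCTG, read by neurogenic factors, stood in 31.8% of 44 windows of pan-neuronal genes against 16.3% of all windows. TTCAGCACC, the left part of the element bound by the repressor REST, stood in 1 of 31 windows of synaptic genes (3.23%) against 0.371% of all windows.

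Regional factors diverged at the level of single genes. Gsx1, a homeobox factor of ventral progenitors (Entrez 14842, chromosome 5, 147188696 to 147190947), lay at 3.1, 2.38, 2.21 and 0.9 CPM and then 3.15, 1.19, 5.44 and 0.899 CPM in intact cells. The null rise was from 0.314, 0.247, 0.541 and 0.652 CPM to 48.6, 49.5, 31.1 and 33.1 CPM. The 4 null differentiating libraries were above the other 12 without overlap, and the interaction was 6.16 ± 0.74 (adjusted p = 8.8e-05). Its relative Gsx2 (-0.81) and the Dlx1 (-0.56), Dlx2 (0.47) and Gad1 (-1.38) genes of GABAergic neurons were not called. Of 22 genes of that class 2 were called higher (9.09%), Gsx1 among them, and 1 lower (4.55%). Both shares were below those over all genes, 12.7% higher and 9.93% lower. Eomes, the factor of dorsal intermediate progenitors, rose in intact cells from 1.31, 0.325, 0.276 and 0.585 to 13.1, 5.73, 19.9 and 3.42 CPM. It fell in null cells from 0.733, 0.493, 0.832 and 0.936 to 0.139, 0.46, 0.319 and 0.145 CPM. Every intact differentiating library was above every other library, and the interaction was -5.57 ± 0.86 (adjusted p = 0.00047). Of 21 glutamatergic and dorsal genes, 4 were called higher (19.0%) and 2 lower (9.52%). The lower count was 5 without the libraries that stood apart, 4 without intact differentiating replicate 4 and 1 without null proliferating replicate 1. Sox5 (1.62 ± 0.13), Pax6 (0.63 ± 0.16) and Rorb (0.60 ± 0.16) were among the higher ones. The list's median changed sign, from 0.15 to -0.97, when its 5 members with 3 or fewer counts in a group were set to their bounds.

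**Figure D5:**
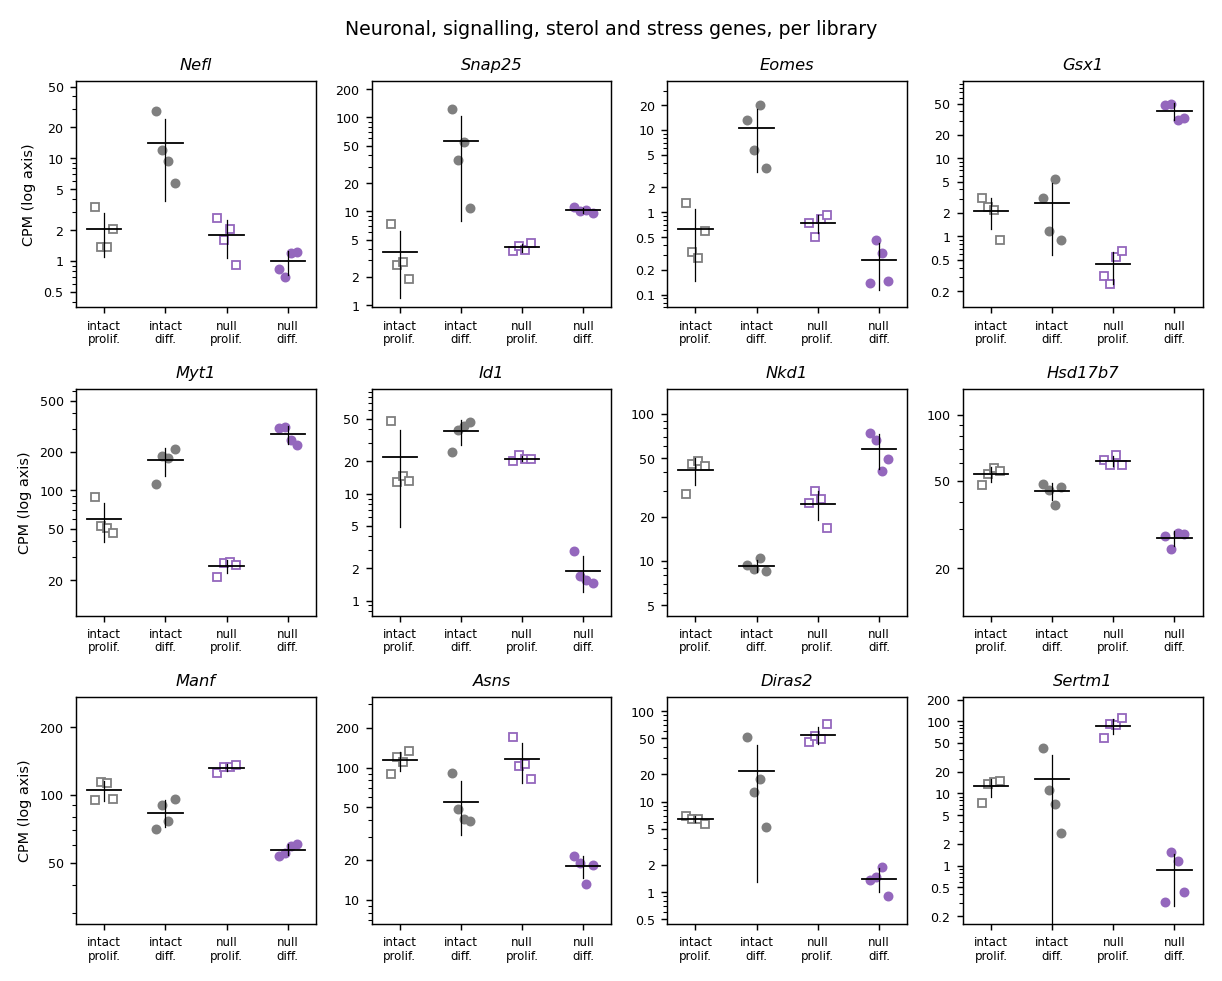
Level of 12 neuronal, signalling, sterol and stress genes in each library (CPM, log axis), with symbols, colours and lines as in the plot of cell cycle genes and SD lines that reach 0 clipped. Gsx1 and Myt1 are highest in the 4 null differentiating libraries, Id1, Hsd17b7, Manf and Asns are lowest there, and the intact differentiating libraries of Snap25 spread from 10.9 to 124 CPM.

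Several targets of bone morphogenetic proteins (BMPs) had the lower null response. The ID genes encode inhibitors of basic helix-loop-helix factors and are induced by BMP signalling through SMAD proteins. Id1 lay at 47.9 CPM in intact proliferating replicate 1, at 12.8 and 13.2 CPM in replicates 2 and 4 and slightly above these in replicate 3. The intact differentiating libraries were at 24.4, 39.3, 43 and 47 CPM, with no called response. Its null level fell from 20.4, 22.8, 20.9 and 21.1 to 2.93, 1.69, 1.55 and 1.45 CPM. The null differentiating libraries were below all the others, and the interaction was -4.30 ± 0.56 (adjusted p = 0.00016). Intact proliferating replicate 1 was the high library of its group. Id3 lay at 159 and 135 CPM in intact cells and fell from 99.8 to 18.5 CPM in null cells (-2.20 ± 0.31). The inhibitory SMAD genes, which BMPs also induce, were blunted rises, with Smad7 from 2.26 to 14.8 CPM in intact and 2.62 to 4.57 CPM in null cells (-1.91 ± 0.43) and Smad6 at -3.31 ± 0.71. The signal-transducing Smad5 (0.70 ± 0.16) and the receptor gene Bmpr1b (0.89 ± 0.24) had the higher null response. In all, 2 of 24 genes were called higher and 5 lower, with a median of -0.42 (-0.72 with few-count members at their bounds), and 3 and 9 were called without the libraries that stood apart. Id2 (0.52), Id4 (-0.72) and Bmp7 (0.84) were not called. The letters GGCGCC, a GC-rich motif known for SMAD binding, stood in 42.9% of 21 windows of the list against 11.9% of all windows. The members with a match were Bmpr2, Smad9, Id2, Id4, Smad5, Gdf10, Bmpr1a and Chrd. No match was found for Id1, Id3, Smad6 or Smad7, though only 17 of the 24 members had a window. The motif share is therefore not a trait of the genes named with the lower null response.

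WNT and Hedgehog genes gave calls in both directions. Shares called were 14.3% in each direction for WNT and 15.4% for Hedgehog genes, near the 12.7% higher and 9.93% lower over all genes. Nkd1, an inducible antagonist of WNT signalling, went from 28.5, 45.7, 47.8 and 44.1 to 9.3, 8.82, 10.4 and 8.48 CPM in intact cells and from 24.8, 29.7, 26.2 and 16.7 to 74.2, 66.8, 40.5 and 49.1 CPM in null cells. The fall was reversed to a rise with no overlap after differentiation (3.41 ± 0.30, adjusted p = 9.8e-06). The receptor gene Lgr5 reversed in the same direction (3.12 ± 0.60) from levels under 3 CPM. The Frizzled receptor gene Fzd1 fell in null cells only, from 41.7 to 13.0 CPM (-1.77 ± 0.31), and Axin2 (0.41), the most used WNT target, was not called. Of 21 WNT genes, 3 were called higher and 3 lower, with 5 higher without intact proliferating replicate 1, alone or with the other library that stood apart. Of 13 Hedgehog genes, 2 were called in each direction, though the higher count was 1 in 12 of the 16 fits that left out 1 library. They were the coreceptor Gas1 (0.76 ± 0.18) and the receptor Ptch1 (0.54 ± 0.19) higher, and the antagonist Hhip (-2.39 ± 0.63) and Nkx6-2 lower. Gli2 (-0.46) and Gli3 (-0.48), the pathway's transcription factors, were not called.

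Sterol synthesis genes fell further in null cells. Of 24 genes, 15 were called with the lower null response and 0 with the higher, at a median of -0.50, and the lower count stayed between 12 and 17 as single libraries were left out. Of these, 11 were enhanced falls and 4 fell in null cells only. Hsd17b7, a reductase of the later steps, fell from 47.7, 53.4, 57.2 and 55.1 to 48, 45.6, 38.8 and 46.8 CPM in intact cells. In null cells it fell from 62.2, 59.1, 65.6 and 58.8 to 28.1, 24.3, 28.9 and 28.5 CPM, below every intact library (-0.91 ± 0.11, adjusted p = 0.00013). Sc5d (-0.91 ± 0.16) and Cyp51 (-0.80 ± 0.16), other enzymes of the later steps, were also called. The enzyme gene Hmgcs1 (-0.30) and the regulator gene Srebf2 (-0.12) were not called. Of 15 fatty acid synthesis genes, 0 were called by edgeR, while 3 had an unadjusted p under 0.05 and 3 were called lower without intact differentiating replicate 3. The sterol regulatory letters TCACNCCAC stood in 1 of 19 windows of sterol genes (5.26%), that of Hmgcs1, against 1.24% of all windows.

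Several genes of the endoplasmic reticulum and of amino acid supply were also called with the lower null response. Of 19 genes of the unfolded protein response, 12 were called lower and 0 higher, with a median of -0.55, and 16 were called lower without the libraries that stood apart. Manf, a secreted protein induced by stress in this compartment, lay at 95.3, 114, 113 and 96 CPM and then 70.6, 90.2, 76.9 and 96.1 CPM in intact cells. The null fall was from 125, 134, 133 and 136 to 53.7, 55.2, 59.4 and 60.3 CPM. Null libraries were the highest before and the lowest after differentiation (-0.88 ± 0.13, adjusted p = 0.00037). The chaperone genes Calr (-0.81 ± 0.16), Hspa5 (-0.68 ± 0.20) and Hsp90b1 (-0.60 ± 0.16) and the transcription factor gene Xbp1 (-0.79 ± 0.17) were called as well. Of 22 integrated stress response and serine genes, 6 were called lower and 0 higher, with a median of -0.48, and 4 were called lower without the libraries that stood apart. Asns, which makes asparagine, went from 89, 119, 111 and 134 to 90.6, 48.7, 40.9 and 39.2 CPM in intact cells and from 172, 103, 106 and 82.6 to 21.3, 19.1, 13.2 and 18.3 CPM in null cells. Only the differentiating groups were separate (-1.64 ± 0.38, adjusted p = 0.0067). Vldlr, a lipoprotein and reelin receptor, reversed from 70.7 and 117 CPM in intact to 141 and 67.9 CPM in null cells (-1.78 ± 0.19, adjusted p = 3.2e-05). Its call and that of the amino acid transporter gene Slc7a5 (-1.03 ± 0.21) were made in all 16 fits that left out 1 library, whereas Atf4 (-0.70 ± 0.22), the regulator of the response, was called in 10. The response element TGATGNAA was found in 31.8% of 22 windows of the list against 3.97% of all windows. It stands in capitals in the 60 bases before the start of Asns, shown for its place near that start.
Asns, chr6:7693210-7693269, minus strand: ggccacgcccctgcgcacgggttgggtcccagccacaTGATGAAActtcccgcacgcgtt

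Genes of energy metabolism gave few calls. Of 27 glycolysis and hypoxia genes, 2 were called in each direction (7.41% each way, against 12.7% higher and 9.93% lower over all genes). The higher count was 1 without the libraries that stood apart and in 10 of the 16 fits that left out 1 library, and the lower count was 6 without the libraries that stood apart, 5 without intact proliferating replicate 1 and 4 without intact differentiating replicate 4. The glycolytic genes Gapdh (0.12) and Ldha (-0.23) were not called. Adm, which encodes the hypoxia-inducible peptide adrenomedullin, fell from 11.2, 23.1, 23.3 and 21.4 to 0.258, 0.447, 0.117 and 0.15 CPM in intact cells and from 52.8, 54.3, 58 and 86.6 to 7.99, 9.77, 10.7 and 16.4 CPM in null cells. The genotypes did not overlap in either condition. Its interaction was 3.87 ± 0.49 (adjusted p = 0.00013), a blunted fall on the log2 scale, although the loss in CPM was larger in null cells (-51.7) than in intact cells (-19.5). Of 33 oxidative phosphorylation genes, 0 were called higher and 5 lower (15.2%, against 9.93% of all genes). All 5 were enhanced falls of less than 1 log2 unit, such as Cox5a (-0.59 ± 0.12). The lower count was 9 without the libraries that stood apart and 8 without intact differentiating replicate 1 alone.

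Guidance and matrix genes were called in both directions. Guidance genes were called higher in 11.1% and lower in 30.6%, and matrix genes in 16.7% each way. Over all genes the shares were 12.7% higher and 9.93% lower. Of 36 axon guidance genes, 4 were called higher and 11 lower, with a median of -0.36. The lower count was 7 without null proliferating replicate 4 or null differentiating replicate 1 and 6 without null differentiating replicate 2, and the higher count was 7 without intact differentiating replicate 1, alone or with intact proliferating replicate 1. Sema6a, a transmembrane semaphorin, rose from 75.9, 58.1, 59.5 and 70.3 to 156, 179, 231 and 217 CPM in intact cells and fell from 156, 132, 135 and 148 to 94.2, 94.8, 124 and 118 CPM in null cells. Null libraries were the higher ones before and the lower ones after differentiation (-1.97 ± 0.19, adjusted p = 1.4e-05). The netrin receptor gene Unc5b fell in null cells only (-1.85 ± 0.22), and Efnb2, a transmembrane ephrin, reversed from a rise to a fall (-2.92 ± 0.52). The receptor gene Epha7 rose from 3.45 to 32.2 CPM in intact cells and lay at 4.17 and 3.29 CPM in null cells (-3.55 ± 0.60). The receptor genes Dcc (1.60 ± 0.28) and Robo1 (1.42 ± 0.38) were enhanced on the log2 scale but gained fewer CPM in null cells, since Dcc rose from 3.58 to 44.0 CPM against 40.5 to 164 CPM. Of 30 matrix genes, 5 were called in each direction, and the higher count was 1 without null proliferating replicate 1 or null differentiating replicate 3. The microfibril gene Fbn2 (-2.44 ± 0.37) fell further in null cells. Col1a1, a fibrillar collagen and a fibroblast marker, reversed from 2.12 and 18.0 CPM to 4.27 and 1.64 CPM (-4.48 ± 0.82). The summed level of 8 fibroblast and meningeal markers lay at 82.9 to 287 CPM in proliferating and 575 to 646 CPM in differentiating intact cells and at 35.3 to 42.2 CPM and 252 to 407 CPM in null cells, and its part in this result was not tested.

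Interferon and antigen presentation genes were called higher in 6 of 22 and lower in 1, with a median of 0.65. B2m, the light chain of class I molecules, fell from 80.2 to 28.5 CPM in intact cells and lay at 95.9 and 78.5 CPM in null cells (1.20 ± 0.23, adjusted p = 0.0019). H2-K1, a heavy chain gene, moved the other way, from 47.3 to 13.9 and from 48.5 to 5.95 CPM (-1.26 ± 0.18), and close relatives among the class I genes make its counts uncertain. Gbp2, an interferon-induced GTPase, rose in null cells only, from 1.64 to 34.6 CPM (3.56 ± 0.84). Isg15 (-0.89), a gene strongly induced by interferon, was not called. The microglial sum was also highest in null differentiating cells (31.6 to 39.8 CPM), and its part in these differences was not tested. Of 15 Krüppel-like factor (KLF) genes, 5 were called higher and 2 lower, 9 and 1 without the libraries that stood apart, and 3 higher without intact proliferating replicate 2, 3 or 4. The lower count was 0 or 1 without 14 of the 16 libraries. Klf15 (1.23 ± 0.19) and Klf13 (0.62 ± 0.13) rose in null cells only. Of 10 genes of KAT7 and its complexes, the scaffold gene Jade2 (-1.17 ± 0.31) had the lower null response and Jade1 (0.50 ± 0.15) and the histone-reader gene Ing4 (0.57 ± 0.15) the higher. The scaffold genes Brpf1 (0.26), Brd1 (0.10) and Brpf3 (-0.05) were not called.

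S100a10, a calcium-binding annexin partner, was the largest blunted fall that met the naming rule, at 71.4, 176, 171 and 162 CPM and then 4.98, 4.02, 3.84 and 3.96 CPM in intact cells. Null cells had 47, 64.1, 60.3 and 83.4 CPM and then 45.2, 71.1, 75.4 and 75.7 CPM with no called response. The differentiating groups were far apart (5.18 ± 0.38, adjusted p = 2.3e-06). Actc1, the cardiac actin gene (4.98 ± 0.75), and Timp1, a metalloproteinase inhibitor (3.92 ± 0.55), were in the same class. Kit, the receptor of stem cell factor, was the largest enhanced rise by that rule. It went from 27.4, 12.3, 12.4 and 11.6 to 32.1, 39.9, 57.9 and 43.5 CPM in intact cells and from 0.523, 0.432, 0.333 and 0.567 to 51.9, 45.2, 41.5 and 43.3 CPM in null cells. The genotypes were far apart while proliferating and overlapped after differentiation, so that the interaction of 5.13 ± 0.42 (adjusted p = 4.5e-06) came with like end levels. The potassium channel gene Kcna6 (4.28 ± 0.77) rose from 18.7 to 73.0 CPM in intact and from 0.221 to 19.1 CPM in null cells, a smaller gain in CPM.

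Diras2, a small GTPase, reversed. It rose from 7.03, 6.5, 6.49 and 5.72 to 51.6, 12.7, 17.7 and 5.27 CPM in intact cells and fell from 45, 53.1, 49.5 and 72 to 1.36, 1.47, 1.92 and 0.899 CPM in null cells. The 4 null proliferating libraries were above the null differentiating ones without overlap, and intact differentiating replicate 4 lay below its proliferating group (-7.03 ± 0.73, adjusted p = 3.2e-05). Eef1a2, the elongation factor form of neurons and muscle, reversed in the same way, from 0.776 and 39.6 CPM to 5.25 and 1.10 CPM (-7.93 ± 1.30). The secreted peptide gene Tafa4 (5.90 ± 0.56) and the protease gene Adamts12 (4.81 ± 0.68) reversed from a fall to a rise. Sertm1, a small membrane protein gene, fell in null cells only, from 58.4, 92.6, 88.8 and 109 to 0.314, 1.53, 1.15 and 0.435 CPM. Intact cells lay at 7.32, 13.4, 14.6 and 14.7 CPM and then at 42.6, 11.2, 7.22 and 2.82 CPM with no called response, and their differentiating libraries spread widely (-7.00 ± 0.95, adjusted p = 0.00021). Ache, the acetylcholinesterase gene, fell from 21.5 to 0.405 CPM in null cells and lay at 2.51 and 2.52 CPM in intact cells (-5.74 ± 0.82). Aldh1a3, which makes retinoic acid, fell from 7.88 to 0.156 CPM in null cells (-5.94 ± 0.65). The mechanosensitive channel gene Piezo2 rose in null cells only, from 2.31 to 17.6 CPM (3.64 ± 0.58).

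Called genes with 3 or fewer counts over the 4 libraries of a group numbered 38 outside predicted genes and pseudogenes, 17 of them in null proliferating and 17 in null differentiating cells. Their fitted interactions depend on the handling of near-zero counts and are not printed. Nrxn3, a presynaptic adhesion molecule, had 225 counts in intact proliferating, 2978 in intact differentiating, 0 in null proliferating and 1136 in null differentiating cells. The giant membrane protein gene Csmd3 had 217, 3349, 2 and 1870 counts in the same order. In both genes the null cells started from near nothing and ended below the intact level, at 8.04 ± 2.25 against 24.9 ± 10.4 CPM for Nrxn3 and 13.0 ± 1.82 against 27.5 ± 6.16 CPM for Csmd3.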

How the data were processed

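Sequencing counts per gene in 16 mouse libraries were analysed as deposited; per the file headers and values they are whole-number counts on Entrez gene identifiers. Per the submitters' processing notes, bcl2fastq, featureCounts and mm10 were used, without stated roles or versions. Neither aligner, annotation nor strand setting is stated in the labels, so overlapping and antisense genes cannot be told apart. Groups came from the sample titles. The labels do not say whether libraries with the same number share a foetus, and p-values measure the spread between these libraries.

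Of 27179 genes, 25275 were matched to a RefSeq symbol. Counts were filtered with filterByExpr (minimum count 10), scaled by the trimmed mean of M values and fitted over 4 groups of 4 libraries with edgeR 4.0.16 in R 4.3.3 (12 residual degrees of freedom, common biological coefficient of variation 0.200). The interaction was called at a Benjamini-Hochberg adjusted p under 0.05. The test was checked on simulated data with independent libraries and the same proliferating levels in both genotypes. That check did not cover libraries that stand apart or a spread that differs between genotypes. Standard errors are the fitted log2 difference over the square root of F. Genes with 3 or fewer counts in a group were given no fitted value. Alternatives used limma 3.58.1, DESeq2 1.42.0, other scalings and filters, a 1.5-fold test, blocks and left-out libraries. The members, lists and naming rule were chosen with earlier results of these data known. The rule took the 5 largest interactions per class among genes with at least 2 CPM in a group that were called in every fit leaving out 1 library, and up to 4 called members per list with the lowest adjusted p. Further list members were chosen after their values were seen. Results for some genes are not reported here.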

Additional observations from a re-analysis of the deposited data

Results flagged for a closer look

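The difference between the genotypes was itself tested, in the interaction term. It was called in 3442 genes, among them 678 blunted and 421 enhanced rises, 936 blunted and 318 enhanced falls, 165 reversals from a rise to a fall and 138 from a fall to a rise. A further 431 genes rose and 340 fell in null cells only.

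Single libraries stood far from the other 3 of their group in 17 of 116 groups checked (29 genes), by a gap past Dixon's 95% critical value for 4 samples. Chance would give about 1 in 20 for independent groups. The groups here are not independent, since the genes share the same 16 libraries and were chosen with earlier results known. The count of 17 therefore cannot be set against that rate. Intact proliferating replicate 1 accounted for 8 of them. It was low for S100a10 (71.4 CPM) and Adm (11.2 CPM), and high for Kit (27.4 CPM), Mobp (0.678 CPM), Myt1 (89.3 CPM), Lhfpl3 (129 CPM), Enpp2 (75.2 CPM) and Id1 (47.9 CPM). Intact differentiating replicate 1 was high for S100a10 (4.98 CPM). Null differentiating replicate 1 was low for S100a10 (45.2 CPM) and high for Top2a (193 CPM) and Id1 (2.93 CPM). Null proliferating replicate 4 was high for Adm (86.6 CPM), Cspg4 (39.9 CPM) and Enpp2 (2.32 CPM). Intact proliferating replicate 4 was high for Egfr (461 CPM) and Mki67 (696 CPM).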

How the results depend on the processing

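The 3442 calls were 3300 with library size scaling, 3400 with relative log expression scaling, 4063 with DESeq2, 3029 without a low-count filter and 3353 with a minimum count of 50. limma voom with quality weights called 7087 genes, 3948 higher and 3139 lower, with 1655 blunted rises, 1898 blunted falls, 1074 enhanced rises, 780 enhanced falls, and 294 and 361 reversals from a rise and from a fall. A test against 1.5-fold called 766 genes, 359 higher and 407 lower, with 205 blunted rises, 179 blunted falls, 51 enhanced rises, 31 enhanced falls, 34 and 8 reversals from a rise and from a fall, and 106 rises and 123 falls in null cells only. As 1 library was left out, the calls ranged from 2834 to 4032, those higher from 1615 to 2175, those lower from 1210 to 1857, blunted rises from 503 to 1044 and blunted falls from 745 to 1224. Blunted rises numbered 1044 without intact proliferating replicate 1, 1135 without the 2 intact libraries numbered 1, and 1065 without the 4 libraries numbered 1, a setting chosen after seeing the data. The cause was not tested. Of 156 genes named by the rule or plotted, 0 changed direction under these alternatives and 53 lost the call in at least 1. Genes named by class had to be called in every fit leaving out 1 library, so their stability in those fits was fixed in advance. Genes named by list were taken for their low adjusted p, so these counts do not measure the stability of called genes in general. A replicate block by number gave 3151 calls and by isolate 2925. Residuals of libraries with the same number correlated between -0.231 and 0.126, and not every library correlated best with its own number, so that a shared foetus or batch was not shown by these values. Depth limited genes near 3 counts in a group, for which no fold is given.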

Other observations

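Further small lists held single genes with wide differences. Of 17 contractile genes, 1 was called higher (Actc1) and 4 lower, and the lower count was 2 without intact proliferating replicate 3. Acta2 and Tagln of this list also mark mural cells, whose part was not tested. The slow skeletal troponin gene Tnnt1 lay at 5.65 and 0.947 CPM in intact and at 76.2 and 1.58 CPM in null cells, an enhanced fall (adjusted p = 0.0011). The myosin light chain gene Myl9 rose from 2.69 to 8.96 CPM in intact cells and lay at 20.7 and 20.3 CPM in null cells without a called response (-1.77 ± 0.29). Among 14 HOX and regional homeobox genes, Pitx3, a factor of dopaminergic neurons and lens, fell from 11.5 to 0.190 CPM in null and from 0.359 to 0.0952 CPM in intact cells (-4.02 ± 0.79). Irx1 rose from 0.0807 to 3.29 CPM in null and from 3.02 to 5.87 CPM in intact cells (4.18 ± 0.73). Of 16 neuropeptide and secretory granule genes, 1 was called, Pam, the enzyme that amidates peptides, as a blunted fall (0.54 ± 0.14). Without the 2 intact libraries that stood apart 4 were called higher and 1 lower, the higher count was 2 without null proliferating replicate 4 or intact differentiating replicate 1 or 4, and the lower count was 2 without intact differentiating replicate 4.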
